A study of Homo sapiens with 24 samples.

Results

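The transcripts described here are those of TXNIP and of the alpha-arrestins ARRDC1, ARRDC2, ARRDC3 and ARRDC4, measured on Illumina expression BeadChips in the human melanoma cell lines WM35 and Mel-624. All probes carrying one of these 5 gene symbols were taken, 8 of the 47231 probes on the array and 5 of the 18811 genes with a named probe. The genes were chosen from the gene family with results of these same arrays known, so the changes between 2 groups are given as descriptions. Whether a gene passed the threshold of a fit over all genes is stated beside each change to place it among them, and is no independent evidence for a gene chosen this way. The arrays were made to define how melanoma cells answer to insulin-like growth factor 1 (IGF1). WM35 cells were cultured for 24 h, with recombinant human IGF1 at 100 ng/mL during the last 6 h or without it (control), at 1% oxygen (hypoxia) or 21% oxygen (normoxia). Mel-624 cells were transfected with pooled siRNAs targeting the IGF1 receptor (siIGF1R) or a non-targeting pool (siControl) and were kept for 3 days in hypoxia or normoxia, whose oxygen levels the labels do not give for this line. The 8 groups held 3 arrays each, labelled A, B and C, and the labels do not say whether these came from separate cultures, so the spread between arrays may be technical.

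Alpha-arrestins are adaptor proteins with an arrestin fold, and most members bind ubiquitin ligases of the NEDD4 family through PPxY motifs and so direct them to membrane proteins. TXNIP binds and inhibits thioredoxin and, like its close relative ARRDC4, restrains glucose uptake. Transcription of TXNIP and ARRDC4 is known to follow glucose metabolites through MondoA (the product of MLXIP) and its partner MLX, which bind paired E-box-like half-sites, and FOXO factors, which signalling from the IGF1 receptor restrains, are among the other known regulators of TXNIP. ARRDC3 is known for the trafficking of beta-adrenergic receptors and integrin beta 4, and ARRDC1 for the budding of vesicles from the plasma membrane together with TSG101.

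The 250 bases before the start sites of the 3 genes with the widest swings in level are printed because their transcripts moved with IGF1, siIGF1R or hypoxia. They come from RefSeq (GRCh38.p14) and read 5′ to 3′ on the strand of the gene, with capitals at CACGTG (the E-box), at both half-sites of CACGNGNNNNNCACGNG, at the FOXO element GTAAACA and at CCAAT, each on either strand.
TXNIP, first of its 2 start sites, chr1:145996580-145996829, minus strand: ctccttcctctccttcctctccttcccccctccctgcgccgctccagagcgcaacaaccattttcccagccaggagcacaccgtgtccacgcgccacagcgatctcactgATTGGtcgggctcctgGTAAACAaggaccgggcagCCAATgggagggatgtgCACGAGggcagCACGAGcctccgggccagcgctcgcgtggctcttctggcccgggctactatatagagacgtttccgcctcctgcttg
ARRDC4, chr15:97960453-97960702, plus strand: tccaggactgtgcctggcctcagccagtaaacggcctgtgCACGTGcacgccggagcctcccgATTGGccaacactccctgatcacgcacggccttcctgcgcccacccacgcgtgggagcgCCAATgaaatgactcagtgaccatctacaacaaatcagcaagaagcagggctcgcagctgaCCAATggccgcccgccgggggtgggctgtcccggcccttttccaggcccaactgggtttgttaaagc
ARRDC3, second of its 2 start sites, chr5:91380098-91380347, minus strand: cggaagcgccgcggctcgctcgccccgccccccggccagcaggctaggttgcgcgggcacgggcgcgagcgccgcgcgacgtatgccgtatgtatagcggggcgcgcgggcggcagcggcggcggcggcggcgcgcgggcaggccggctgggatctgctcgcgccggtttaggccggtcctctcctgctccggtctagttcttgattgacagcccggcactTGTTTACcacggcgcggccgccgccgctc
The TXNIP window held the paired half-sites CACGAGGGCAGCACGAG at bases -88 to -72, a pattern found in 16 of 35114 promoter windows of that length (0.0456%). It also held GTAAACA at -124 to -118. The ARRDC4 window held no such pair but 1 E-box at -210 to -205, a motif in 6.35% of windows, and 3 CCAAT boxes, a motif in 32% of windows. The ARRDC3 window held the FOXO element on the other strand, as TGTTTAC at -29 to -23, and 2.98% of windows held that element. The windows at the other start sites, not printed, differed: that of ARRDC3 held a CCAAT box at -241 to -237 and no FOXO element, and that of TXNIP held ACGTG at -162 to -158 and neither the half-sites nor the FOXO element. Hypoxia-factor core letters ACGTG, which overlap the E-box of ARRDC4, were in 18.5% of windows, and GCGTG in 32.2%. These are letter matches only.

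Between 13948 and 15987 probes were detected per array (detection p below 0.01). Mean signal before normalization was 317 to 341 in the WM35 normoxia controls and 248 to 268 on the other 9 WM35 arrays, while Mel-624 arrays spanned 290 to 388. Every WM35 comparison that uses the normoxia controls carries this difference, and its part in the results was not tested. The 2 lines were run on different BeadChips, and a difference between lines cannot be told apart from one between chips. Of 7 melanocyte markers with a named probe, Mel-624 expressed 6 (MLANA, PMEL, TYR, TYRP1, SOX10 and MITF) and WM35 only SOX10 and MITF, with MLANA, PMEL, TYR, TYRP1 and S100B detected on 0 of its 12 arrays. IGF1R, the siRNA target, stood at 6.03, 6.28 and 6.39 in normoxic siIGF1R cells, against 6.98, 7.06 and 7.07 in siControl cells (log2 normalized signal, -0.81 ± 0.18 SE, limma adjusted p = 0.0099). Hypoxic siIGF1R cells gave 6.19, 7.02 and 6.59, against 8.46, 8.65 and 8.23 in siControl cells (-1.84 ± 0.18, adjusted p = 2.5e-05).

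TXNIP was read by 1 probe, ILMN_1697448, detected on all 24 arrays, and its gene lies at chr1:145992435-145996579 (GRCh38.p14). ARRDC2, ARRDC3 and ARRDC4 each had 2 probes, of which 1 was bright enough to be kept in both lines. The second probe of ARRDC3 and of ARRDC4 was detected on 0 of 24 arrays, and that of ARRDC2 on 1, a normoxic siControl array. No member was therefore read by 2 usable probes, and whether probes of 1 gene agree could not be examined. The single ARRDC1 probe was detected on 0 of 24 arrays, with levels of 4.43 to 5.33. ARRDC1 is left without a change for that reason. After the filter on dim probes 4 of the 5 genes remained in each line, among 9569 genes in WM35 and 9292 in Mel-624. The probe level of 1 gene is not set against that of another, since probes differ in brightness.

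TXNIP fell with IGF1 in WM35 and rose when the IGF1 receptor was lowered in Mel-624. In normoxic WM35 cells its level was 9.40, 9.23 and 9.48 with IGF1, against 9.73, 9.92 and 9.91 without. Every IGF1 array lay below every control array. The change was -0.49 ± 0.11 (log2, ± SE, n = 3 arrays per group), or 1.4-fold lower, and it was called. Called means only that the gene was among those with a Benjamini-Hochberg adjusted p below 0.05 in the limma fit over all kept genes of the line, and "rose" and "fell" are used of called genes. The call was fragile. It was lost when any 1 of the 6 normoxia arrays, hypoxia control B or C, or hypoxia IGF1 array B or C was left out, while the change itself stayed between -0.55 and -0.42. The normoxia controls are also the arrays with the higher raw signal, and the part of that in the result was not tested. Groups of arrays without overlap were common among all genes. In WM35 the share was 23% with IGF1 in normoxia and 29.1% in hypoxia. With hypoxia it was 38% in control and 34.2% in IGF1-treated cells. In Mel-624 the share was 33.7% with siIGF1R in normoxia and 42.8% in hypoxia. With hypoxia it was 60.4% in siControl and 56.7% in siIGF1R cells. Lack of overlap is therefore only a description, here and below.

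In hypoxic WM35 cells the separation was wider. TXNIP stood at 9.60, 9.88 and 9.80 with IGF1, against 10.74, 10.82 and 10.72 without. The 3 controls sat within a narrow band that no IGF1 array approached. The change of -1.0 ± 0.11 (2.0-fold lower) was called, and it was the 13th lowest of the 9569 genes. It was called again without each array in turn, between -1.06 and -0.92. Raw array signal was alike here, at 249 to 263 in the IGF1 group and 251 to 264 in the controls.

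In normoxic Mel-624 cells TXNIP stood at 11.58, 11.66 and 11.37 with siIGF1R, against 10.18, 10.47 and 10.20 with siControl. The groups were well apart, and the change of 1.25 ± 0.11 (2.38-fold higher) was called. Of 9292 genes it had the 8th highest change in that comparison. In hypoxia the levels were 11.17, 11.16 and 11.22 with siIGF1R, against 10.25, 10.15 and 10.32 with siControl. The 3 siIGF1R arrays were nearly equal and lay above all siControl arrays. The change was 0.95 ± 0.11 (1.93-fold higher), again called. Both calls held without each array in turn.

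**Figure D1:**
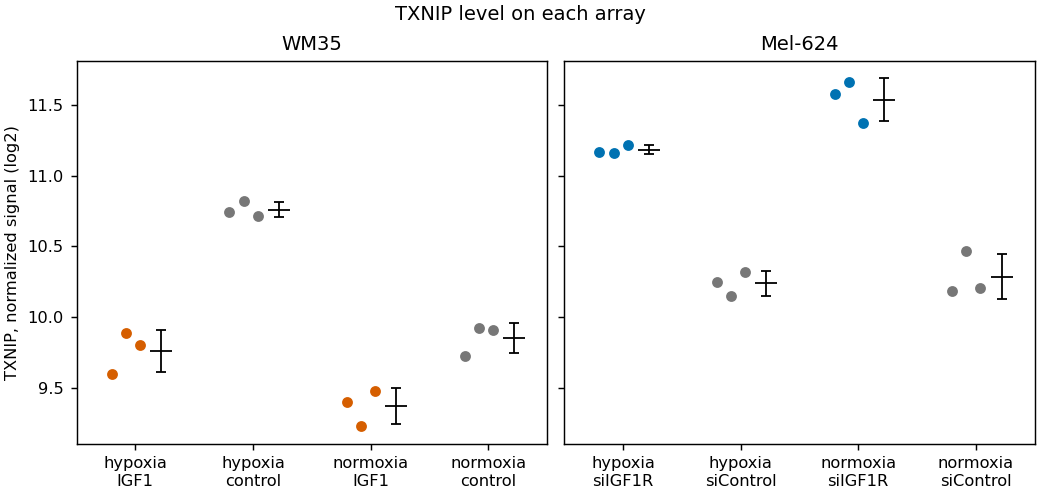
TXNIP level (log2 normalized signal, vertical axis) on each of the 3 arrays of the 8 groups, WM35 on the left and Mel-624 on the right, with the group mean and SD as a bar beside the points. IGF1 groups lie below their controls at either oxygen level in WM35, siIGF1R groups lie above their siControl groups in Mel-624, and the hypoxic WM35 controls stand above all other WM35 arrays.

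TXNIP rose with hypoxia in both WM35 comparisons, while in Mel-624 it fell in siIGF1R cells and was not called in siControl cells. WM35 control cells averaged 10.76 ± 0.05 in hypoxia and 9.85 ± 0.11 in normoxia (SD, n = 3 each), a called change of 0.91 ± 0.11 (SE), or 1.88-fold higher. The normoxia controls had the higher raw signal here too, and the part of that was not tested. With IGF1 present the averages were 9.76 ± 0.15 in hypoxia and 9.37 ± 0.13 in normoxia. That change, 0.39 ± 0.11, was called, and the groups did not overlap. The call was lost when array A or B of the normoxia IGF1 group, or B or C of the hypoxia IGF1 group, was left out, where the change was 0.32 to 0.41. In Mel-624 siControl cells the averages were 10.24 ± 0.09 in hypoxia and 10.28 ± 0.16 in normoxia, with overlapping arrays and no call (-0.05 ± 0.11), and without normoxia siControl B the sign turned (0.0444). In siIGF1R cells TXNIP averaged 11.18 ± 0.03 in hypoxia and 11.54 ± 0.15 in normoxia. That fall of 0.35 ± 0.11 was called, though not without normoxia siIGF1R B (-0.29). The hypoxia effect was not compared between the lines by a test, since treatment, time and chip differ.

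Whether oxygen changed the treatment effect was tested within each line. That difference is built from the same group means that were in view when the genes were chosen. Its p-values, here and for the other members, are therefore no independent evidence either. In WM35 the IGF1 effect on TXNIP in hypoxia minus that in normoxia was -0.51 ± 0.15 and was not called (limma adjusted p = 0.30). In Mel-624 the siIGF1R effect in hypoxia minus that in normoxia was -0.31 ± 0.15 (limma adjusted p = 0.36). Over the alternatives the adjusted p ranged from 0.25 to 0.57 in WM35 and from 0.23 to 0.57 in Mel-624.

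With all 24 arrays normalized together, the groups were put in order of TXNIP level as a description. The place of a WM35 group against a Mel-624 group cannot be told apart from differences in chip, treatment and culture time. Normoxic siIGF1R cells were highest (11.41 ± 0.14 SD), followed by hypoxic siIGF1R cells (11.07 ± 0.03) and hypoxic WM35 controls (10.87 ± 0.06). Normoxic (10.19 ± 0.16) and hypoxic (10.15 ± 0.08) siControl cells came next and overlapped. Hypoxic IGF1-treated WM35 cells (9.86 ± 0.15) overlapped normoxic WM35 controls (9.95 ± 0.11), and normoxic IGF1-treated WM35 cells were lowest (9.47 ± 0.13). All other neighbours in that order had arrays that did not overlap, which between lines carries the same limit.

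ARRDC4, the closest relative of TXNIP, rose with siIGF1R as TXNIP did in Mel-624 but fell with hypoxia. Its kept probe was ILMN_1660544. In normoxia it stood at 8.13, 8.08 and 7.44 with siIGF1R, against 6.91, 6.85 and 6.98 with siControl. The siControl arrays were tight and siIGF1R array C lay closer to them than A and B did. The change was 0.97 ± 0.18 (SE), 1.96-fold higher and called. In hypoxia the levels were 7.38, 6.85 and 6.91 with siIGF1R, against 5.88, 5.76 and 6.01 with siControl. No arrays overlapped, and the called change was 1.16 ± 0.18, or 2.24-fold higher.

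Set by oxygen, the same ARRDC4 arrays gave a called fall of 1.03 ± 0.18 in siControl cells, with means of 5.88 ± 0.12 in hypoxia and 6.91 ± 0.07 in normoxia (SD, n = 3 each). In siIGF1R cells the means were 7.05 ± 0.29 in hypoxia and 7.88 ± 0.38 in normoxia, a called fall of 0.84 ± 0.18. All 4 ARRDC4 calls in Mel-624 held without each array in turn. The siIGF1R effect was 0.19 ± 0.25 larger in hypoxia than in normoxia (limma adjusted p = 0.77), and without normoxia siIGF1R C that difference was -0.0288. Over the 12 Mel-624 arrays the ARRDC4 level followed that of TXNIP with r = 0.817 (rho = 0.776), a description over arrays that share groups and normalization.

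In WM35 ARRDC4 was close to background. It was detected on 4 of 12 arrays: 2 normoxia controls and 1 array in each IGF1 group. Levels were 5.25, 5.19 and 5.43 with IGF1 in normoxia, against 4.87, 5.39 and 5.41 in the controls. In hypoxia they were 5.01, 5.37 and 5.22 with IGF1, against 5.09, 4.86 and 5.19 in the controls. All 4 groups overlapped and no change was called, with values from -0.18 to 0.15. A fall from this level would not be seen, since most of these arrays are already undetected.

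ARRDC3 rose with hypoxia in control cells of both lines. In WM35 control cells its probe ILMN_2198515 gave 7.25, 6.80 and 6.86 in hypoxia, against 5.40, 5.24 and 5.86 in normoxia. The lowest hypoxia array was well above the highest normoxia array. The change of 1.47 ± 0.22 (2.77-fold higher) was called. It uses the normoxia controls with the higher raw signal, and the part of that was not tested. With IGF1 present the levels were 7.09, 6.72 and 7.51 in hypoxia, against 6.27, 5.92 and 6.47 in normoxia. The groups were again apart, and the change of 0.89 ± 0.22 (1.85-fold higher) was called. That second call was lost without normoxia IGF1 B (0.74) or hypoxia IGF1 C (0.69).

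Read for IGF1, the same ARRDC3 arrays showed no call at either oxygen level in WM35. In normoxia the means were 6.22 ± 0.28 with IGF1 and 5.50 ± 0.32 without (SD, n = 3 each). The arrays did not overlap, as for 23% of all genes. They lay close, with the highest control at 5.86 and the lowest IGF1 array at 5.92. The uncalled difference of 0.72 ± 0.22 (SE) was the 13th highest among 9569 genes, opposite in sign to that of TXNIP. The control side was near background, with 2 of 3 arrays detected. These controls also had the higher raw signal, and the part of that was not tested. In hypoxia the means were 7.11 ± 0.40 with IGF1 and 6.97 ± 0.25 without, with overlap and a difference of 0.14 ± 0.22. The IGF1 effect in hypoxia minus that in normoxia was -0.58 ± 0.31 (limma adjusted p = 0.64).

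In Mel-624 the ARRDC3 probe was detected on 0 of the 6 normoxia arrays. Hypoxic siControl cells were the only Mel-624 group with all 3 arrays detected, at 5.84, 6.12 and 6.46, against 5.35, 5.05 and 4.74 in normoxic siControl cells. Because the normoxia group had no detected array, the difference is given as at least 1.52-fold higher in hypoxia, taken against the lowest detected signal of each array where the probe lay below it. The fit called it. The probe passed the filter of 3 detected arrays only through the hypoxic siControl group, where it was highest. The changes that use that group, the oxygen difference of the siIGF1R effect included, are therefore descriptions and no support. With siIGF1R in hypoxia the levels were 5.41, 5.60 and 5.40, with 1 array detected. All lay below the hypoxic siControl arrays, and the change of -0.68 ± 0.17 was called, although the authors' deposited normalized values gave -0.63 without a call. Normoxic siIGF1R cells gave 5.01, 5.21 and 4.92, with 0 of 3 arrays detected, so no change with hypoxia is given for siIGF1R cells. The siIGF1R effect in hypoxia minus that in normoxia was -0.68 ± 0.24 (limma adjusted p = 0.20), and its normoxia side rests on undetected signal.

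ARRDC2 was detected on all 24 arrays with probe ILMN_1715181. In WM35 its means were 7.21 ± 0.18 with IGF1 and 6.91 ± 0.19 without in normoxia, and 7.19 ± 0.20 with IGF1 and 6.88 ± 0.31 without in hypoxia (SD, n = 3 each). The arrays overlapped in both pairs and none of the 4 comparisons was called. In Mel-624 hypoxic siControl cells stood at 6.39, 6.88 and 6.67, against 7.42, 7.42 and 7.40 in normoxia. The normoxia arrays were almost equal and above all hypoxia arrays, and the fall of 0.77 ± 0.14 (1.71-fold lower) was called. With siIGF1R the levels were 6.98, 6.90 and 6.98 in hypoxia, against 7.53, 6.99 and 7.33 in normoxia. Those arrays did not overlap either, as for 56.7% of all genes in that comparison, and the change of -0.33 ± 0.14 was not called. It was called without normoxia siIGF1R B (-0.48), without hypoxia siControl A (-0.33), with the deposited values (-0.48) and where detection on all 12 arrays was asked for. The siIGF1R effect on ARRDC2 was -0.13 ± 0.14 in normoxia and 0.31 ± 0.14 in hypoxia, neither called, and their difference of 0.44 ± 0.20 had a limma adjusted p of 0.31.

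**Figure D2:**
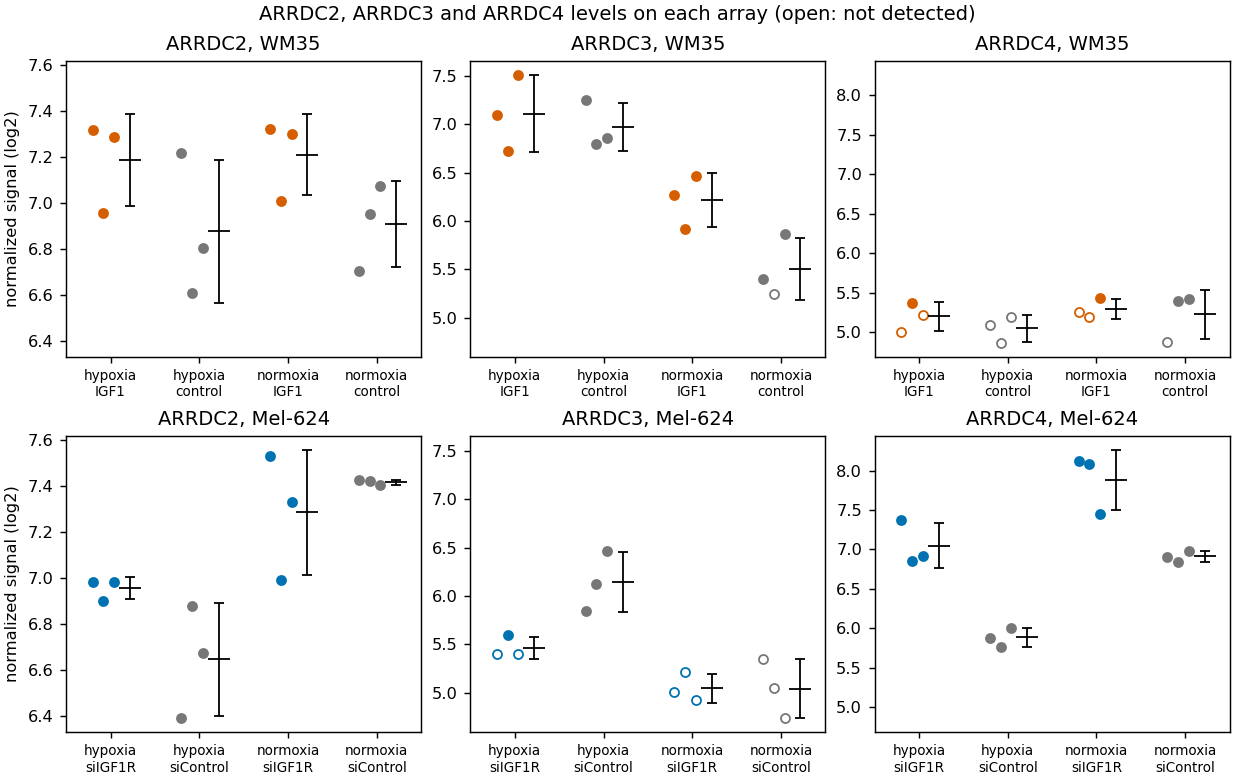
Levels of ARRDC2, ARRDC3 and ARRDC4 (log2 normalized signal, vertical axes) on each array of WM35 (top row) and Mel-624 (bottom row), with group mean and SD beside the points. Open symbols are arrays on which the probe was not detected: ARRDC4 on 8 of 12 WM35 arrays, ARRDC3 on 8 of 12 Mel-624 arrays and on 1 WM35 array.

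The members thus differed in which comparison they were called in. Of the 4 genes kept in WM35, 1 fell and 0 rose with IGF1 in normoxia, where 1.58% of all genes were called, and 1 fell and 0 rose in hypoxia, where 9.06% were called. The gene was TXNIP both times. With hypoxia 2 of 4 rose, TXNIP and ARRDC3, in control cells (20.7% of all genes called) and in IGF1-treated cells (15.6% called). In Mel-624 2 of 4 rose with siIGF1R in normoxia (16% of all genes called), TXNIP and ARRDC4. In hypoxia those 2 rose and ARRDC3 fell (25.8% called). With hypoxia ARRDC3 rose while ARRDC2 and ARRDC4 fell in siControl cells (51.6% called), and TXNIP and ARRDC4 fell in siIGF1R cells (50% called). Nothing is read from these counts, since these comparisons were in view when the genes were chosen. The 2 comparisons that share an oxygen level or a treatment also share arrays.

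**Figure D3:**
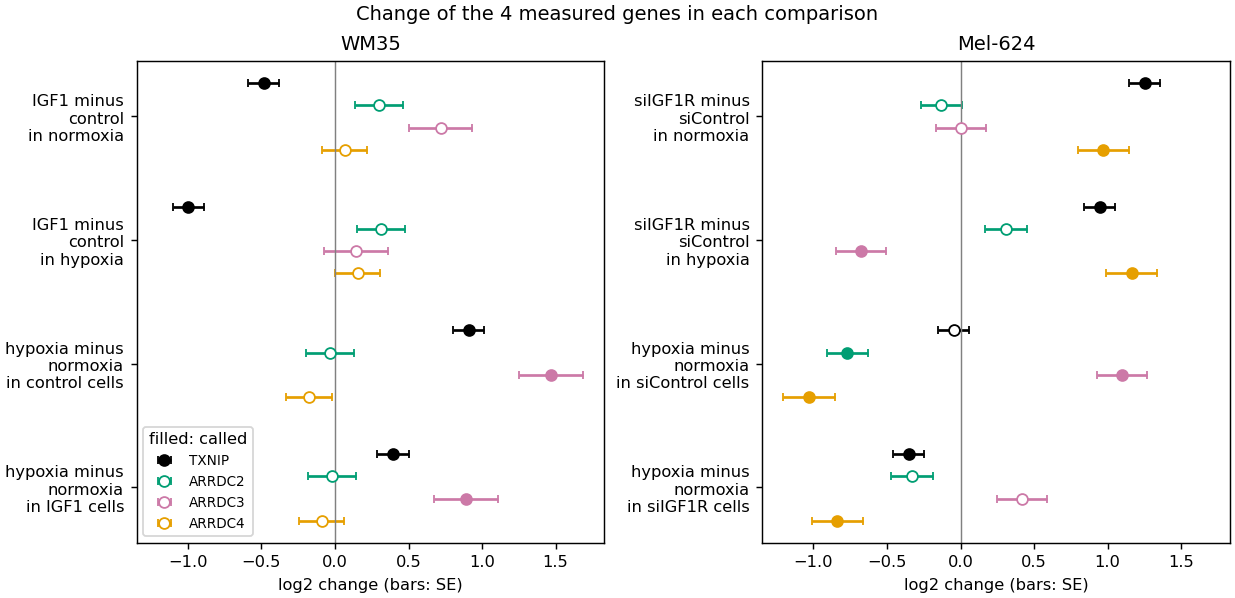
Log2 change (horizontal axis, bars are SE) of TXNIP, ARRDC2, ARRDC3 and ARRDC4 in the 4 comparisons of each line, filled where the change was called. TXNIP lies left of 0 for both IGF1 comparisons and right of 0 for both siIGF1R comparisons, and ARRDC3 lies right of 0 in all 4 hypoxia comparisons, 3 of them called, with its Mel-624 normoxia arrays undetected.

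For the difference of the treatment effect between oxygen levels, limma called 0 of the 4 members in WM35 (0.0523% of all genes called) and 0 of 4 in Mel-624 (0.818% called). At an unadjusted p below 0.05 there were 1 in WM35, TXNIP, and 2 in Mel-624, ARRDC2 and ARRDC3. The ARRDC3 value rests on undetected normoxia signal. The share of all genes at that unadjusted threshold was not counted, so nothing is read from such counts, here or in the lists below.

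Among the 8390 genes kept in both lines, those whose level was most like that of TXNIP over the 12 arrays of each line were found by the lower of the 2 correlations. PDE4B, a cyclic AMP phosphodiesterase, came first with r = 0.922 in WM35 and r = 0.935 in Mel-624. It was followed by CCDC92 (0.888 and 0.896), the phosphatase gene CTDSP2 (0.896 and 0.883), the integrin subunit gene ITGB5 (0.873 and 0.865) and the acetyltransferase gene KAT2B (0.863 and 0.932). PDE4B fell by 0.87 ± 0.12 (SE) with IGF1 in normoxia and by 0.80 ± 0.12 in hypoxia, and it rose by 0.65 ± 0.10 and 0.48 ± 0.10 with siIGF1R in normoxia and hypoxia, all called. KAT2B rose by 0.72 ± 0.10 and 0.78 ± 0.10 with siIGF1R, but with IGF1 its fall was called only in hypoxia (-0.50 ± 0.12). These genes were picked by correlation with TXNIP on the same arrays. Their changes and calls follow in part from that choice and are no support. Of the other members, ARRDC2, detected on all 24 arrays, had r = -0.484 with TXNIP in WM35 and 0.204 in Mel-624. ARRDC4 had 0.817 in Mel-624 and ARRDC3 0.375 in WM35. No correlation is given for ARRDC4 in WM35 or ARRDC3 in Mel-624, where the probe was undetected on 8 of 12 arrays.

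The levels most opposite to TXNIP were those of the non-coding RNA SNHG15 (-0.912 in WM35 and -0.947 in Mel-624), the cholesterol synthesis gene NSDHL (-0.877 and -0.859) and the calcium channel gene ORAI1 (-0.853 and -0.926). ORAI1 fell by 1.39 ± 0.16 with siIGF1R in normoxia and by 0.75 ± 0.16 in hypoxia. With IGF1 it changed by 0.24 ± 0.13 in normoxia and 0.41 ± 0.13 in hypoxia, neither called. These correlations run over arrays that share groups, chip and normalization. The changes of ORAI1 likewise follow in part from how it was picked.

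The genes that work with alpha-arrestins were then followed in 5 lists. The lists were written with earlier results of these data known. Their counts, medians and p-values are therefore descriptions and no independent evidence. Of the arrestin-fold relatives, ARRB1 (beta-arrestin 1) and VPS26A, VPS26B and VPS26C (cargo-binding subunits of the retromer and retriever sorting complexes) were kept. With siIGF1R in normoxic Mel-624 cells 2 of the 4 rose, ARRB1 and VPS26A, and 0 fell, where 16% of all genes were called, with a list median of 0.41 against 0.00083 over all genes. In hypoxia 4 of 4 rose, where 25.8% of all genes were called, with a median of 0.45 against 0.018. ARRB1 rose by 0.61 ± 0.10 (limma adjusted p = 0.0020) in normoxia and by 0.79 ± 0.10 (adjusted p = 0.00017) in hypoxia. VPS26A rose by 0.48 ± 0.11 and 0.45 ± 0.11. VPS26B and VPS26C changed by 0.34 ± 0.14 (adjusted p = 0.11) and 0.11 ± 0.08 (adjusted p = 0.39) in normoxia, without a call, and rose by 0.44 ± 0.14 and 0.44 ± 0.08 in hypoxia. In WM35 limma called 0 of the 4 with IGF1 at either oxygen level, with 0 in normoxia and 1 in hypoxia at an unadjusted p below 0.05. The shares of all genes called were 1.58% in normoxia and 9.06% in hypoxia.

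Of the thioredoxin system, 10 genes were kept in each line. With IGF1 in hypoxic WM35 cells 1 of 10 was called, near the 9.06% of all genes called. That gene, TXNRD1, the cytosolic thioredoxin reductase, rose by 0.47 ± 0.09 (adjusted p = 0.0072). In normoxia, where 1.58% of all genes were called, limma called 0 of 10 (1 at an unadjusted p below 0.05). With siIGF1R 1 of 10 was called in normoxic Mel-624 cells (16% of all genes called), the peroxiredoxin gene PRDX4, which fell by 0.42 ± 0.10. In hypoxic ones 2 of 10 were called (25.8% of all genes): TXNRD1 rose by 0.57 ± 0.12 (adjusted p = 0.0039) and PRDX6 fell by 0.51 ± 0.08. TXN, the thioredoxin that TXNIP binds, was not called with IGF1 or siIGF1R, at 0.02 ± 0.13 and 0.17 ± 0.13 with IGF1 in normoxia and hypoxia, and at -0.25 ± 0.12 and -0.0019 ± 0.12 with siIGF1R.

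Reported cargo and partners of alpha-arrestins had 5 kept members. SLC11A2, an iron transporter, rose by 1.08 ± 0.09 (adjusted p = 3.4e-05) with siIGF1R in normoxia and by 0.48 ± 0.09 in hypoxia, and it also rose by 0.53 ± 0.10 with IGF1 in hypoxic WM35 cells. SLC2A1, the glucose transporter that TXNIP restrains, rose by 0.60 ± 0.14 (adjusted p = 0.015) with siIGF1R in normoxia. It was not called with siIGF1R in hypoxia (0.12 ± 0.14) or with IGF1 in normoxia (0.42 ± 0.10) or hypoxia (-0.0091 ± 0.10). DDIT4, whose product TXNIP binds, rose by 0.98 ± 0.11 (adjusted p = 0.00074) with IGF1 in normoxic WM35 cells. With siIGF1R in hypoxia it fell by 0.42 ± 0.11. It was not called with IGF1 in hypoxia (0.14 ± 0.11) or with siIGF1R in normoxia (-0.24 ± 0.11). TSG101, the partner of ARRDC1, rose by 0.37 ± 0.11 with siIGF1R in hypoxia. NOTCH1 was not called with either treatment.

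With IGF1, limma called 0 of 6 kept NEDD4-family ligase genes at either oxygen level. The shares of all genes called were 1.58% in normoxia and 9.06% in hypoxia. With siIGF1R it called 0 of 5, with 1 in normoxia and 0 in hypoxia at an unadjusted p below 0.05. There 16% of all genes were called in normoxia and 25.8% in hypoxia. So few ligase genes cannot set these counts apart from those shares. MLXIP and MLXIPL were too dim to be kept. MLX changed by 0.21 ± 0.12 and -0.08 ± 0.12 with IGF1 in normoxia and hypoxia and by 0.37 ± 0.13 and 0.30 ± 0.13 with siIGF1R, without a call.

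**Figure D4:**
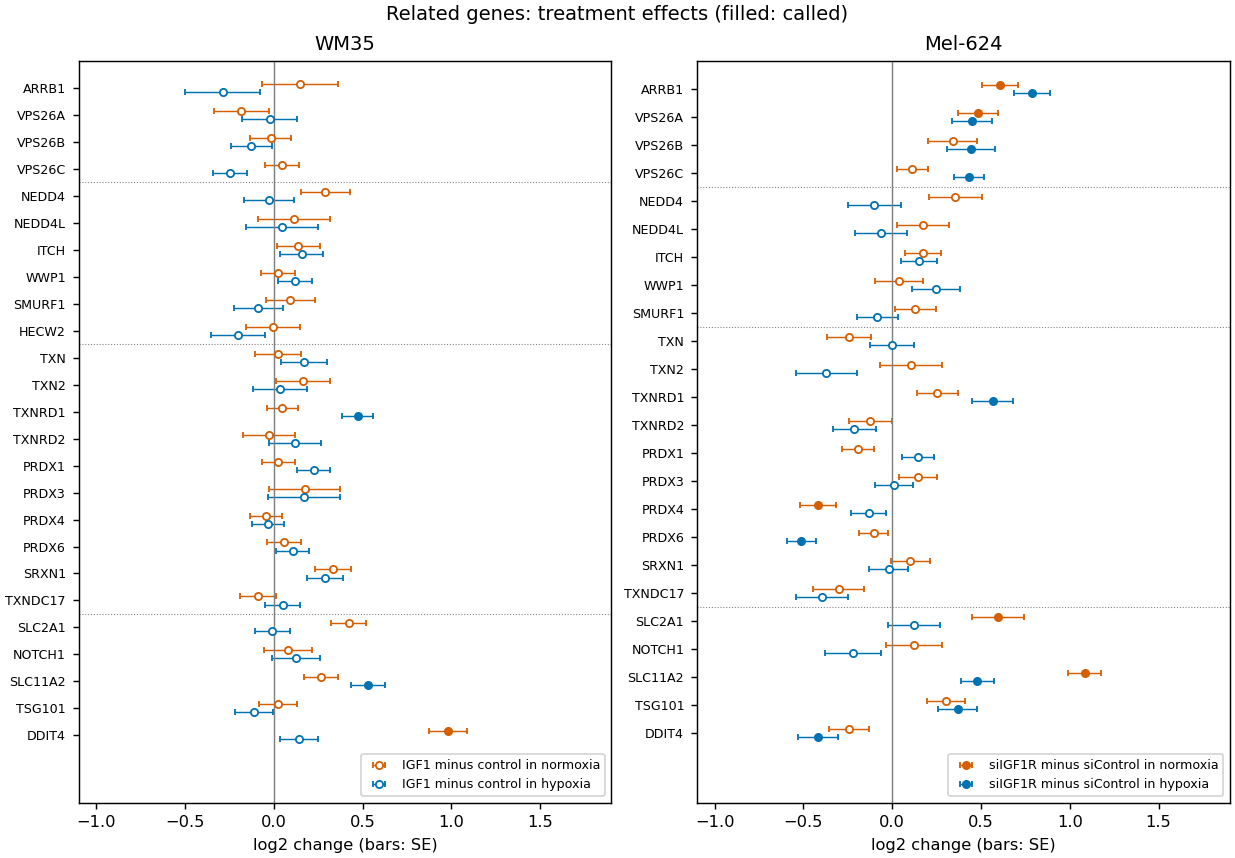
Log2 change (horizontal axis, bars are SE) of the kept genes of 4 lists with IGF1 in WM35 (left) and with siIGF1R in Mel-624 (right), filled where called. Dotted lines separate arrestin-fold relatives, ubiquitin ligases, the thioredoxin system, and cargo and partners, and the 4 arrestin-fold relatives lie right of 0 in Mel-624.

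With hypoxia more genes of these lists were called in Mel-624, where the share of all genes called was also higher. In siControl cells, where 51.6% of all genes were called, 4 of 5 kept ubiquitin ligase genes fell and 0 rose: NEDD4L (-1.29 ± 0.15, adjusted p = 1.2e-05), NEDD4 (-0.61 ± 0.15), ITCH (-0.44 ± 0.10) and WWP1 (-0.39 ± 0.13), with a median of -0.44 against -0.03 over all genes. In siIGF1R cells, where 50% of all genes were called, 3 of 5 fell, NEDD4L again the most (-1.52 ± 0.15). In WM35 1 of 6 fell in control cells (20.7% of all genes called), HECW2 (-1.02 ± 0.15). In IGF1-treated cells, with 15.6% of all genes called, HECW2 was again the 1 gene of 6, at least 1.65-fold lower in hypoxia, where it was not detected. The glucose transporter gene SLC2A1 rose in all 4 hypoxia comparisons, by 1.03 ± 0.10 and 0.60 ± 0.10 in WM35 control and IGF1-treated cells and by 1.30 ± 0.14 and 0.83 ± 0.14 in siControl and siIGF1R cells. DDIT4 also rose in all 4, by 2.76 ± 0.11 and 1.91 ± 0.11 in WM35 control and IGF1-treated cells and by 0.92 ± 0.11 and 0.74 ± 0.11 in siControl and siIGF1R cells. MLX rose by 0.66 ± 0.13 and 0.58 ± 0.13 in siControl and siIGF1R cells.

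In the thioredoxin system TXNRD1 was lower in hypoxia in Mel-624 (-0.87 ± 0.12 in siControl and -0.56 ± 0.12 in siIGF1R cells) and in WM35 control cells (-0.60 ± 0.09). The sulfiredoxin gene SRXN1 fell by 0.68 ± 0.11 and 0.80 ± 0.11 in siControl and siIGF1R cells. The mitochondrial thioredoxin TXN2 rose by 0.59 ± 0.17 in siControl cells, where 1 of 10 rose and 4 fell, a share near the 51.6% of all genes called. ARRB1 and VPS26A fell and VPS26B and VPS26C rose with hypoxia in siControl and in siIGF1R cells. For the difference of the treatment effect between oxygen levels limma called 0 genes of the 5 lists in either line. At an unadjusted p below 0.05 there were 1 and 2 thioredoxin system genes in WM35 and Mel-624, 2 cargo and partner genes in each line, and 1 arrestin-fold relative in Mel-624. Here too the share of all genes at that threshold was not counted.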

How the data were processed

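For every probe on each of 24 arrays the authors deposited a mean signal intensity and a detection p-value, without normalization per the file headers. The submitters' processing notes name GenomeStudio without a version. The authors also deposited normalized intensity, by a method that no header or label states, which served as an alternative. Hypoxic siIGF1R arrays are spelled siIGFR1 in their titles. Signals of each line were background-corrected, quantile normalized and log2 transformed with neqc of limma 3.58.1 in R 4.3.3, with the background taken from the detection p-values and an offset of 16, which shrinks changes of dim probes. Figures used matplotlib 3.10.9. Probes were named through the platform's gene table. A probe was kept where 3 or more of the 12 arrays of a line had detection p below 0.01, and the brightest such probe stood for the gene. Each line was fitted with lmFit and eBayes on 4 group means, and p-values were adjusted over all kept genes. The fit was tested on simulated data. Deviations of same-letter arrays from their group means correlated weakly (-0.28 to 0.24), so letters were not treated as pairs. In Mel-624 the main axis of those deviations (19.7% of their variance) set A arrays (-1.15 to -0.20) apart from B arrays (0.22 to 1.01). A shared letter effect is thus possible there, and a replicate block was run as an alternative. The members and lists were chosen with earlier results of these data known. Named genes are the members, IGF1R, melanocyte markers, called or described list genes, and the 5 most like and 3 most opposite to TXNIP. ANGPTL4, VEGFA, ADM and NDRG1 were named as a check of hypoxia, and ARRDC3-AS1 after its values were seen. Alternatives were the deposited values, no further background correction, all 24 arrays normalized together, stricter and no detection filters, averaged probes, a replicate block, only the arrays compared, each array left out and, chosen after seeing the data, WM35 normoxia control C and hypoxia control A left out together, which stood apart from their groups. Promoter windows were matched by symbol, and all 5 genes had one.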

Additional observations from a re-analysis of the deposited data

How the results depend on the processing

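With 3 arrays per group the number of arrays limits precision, and ARRDC1, ARRDC4 in WM35 and ARRDC3 in Mel-624 are limited by signal near background. TXNIP kept its direction and call with IGF1 in hypoxia, with siIGF1R at both oxygen levels and with hypoxia in WM35 controls under every alternative run. The fall with IGF1 in normoxia was no longer called with the deposited values (-0.43), with no detection filter (-0.49), with a replicate block (-0.49), from the compared arrays alone (-0.49) and without both arrays standing apart (-0.46). Without 1 array each it ranged from -0.55 to -0.42. The replicate block changed no other TXNIP call. The rise with hypoxia in IGF1-treated cells lost its call with only the arrays compared (0.39) and ranged from 0.32 to 0.48 without 1 array each. Hypoxia effects in Mel-624 ranged from -0.44 to -0.29 in siIGF1R and from -0.0987 to 0.0444 in siControl cells.

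Only uncalled changes turned sign. With the deposited values these were the ARRDC2 oxygen difference of the IGF1 effect (-0.0145), the ARRDC4 oxygen difference of the siIGF1R effect (-0.0244) and ARRDC4 with IGF1 in normoxia (-0.0419). With 1 array left out these 3 ranged from -0.12 to 0.18, from -0.0288 to 0.31 and from -0.11 to 0.16. ARRDC2 ranged from -0.26 to 0.0156 with siIGF1R in normoxia, from -0.20 to 0.10 with hypoxia in WM35 controls and from -0.12 to 0.0936 in IGF1-treated cells. ARRDC3 ranged from -0.15 to 0.16 with siIGF1R in normoxia, where it was undetected, and from -0.0617 to 0.33 with IGF1 in hypoxia. ARRDC4 ranged from -0.18 to 0.00724 with hypoxia in IGF1-treated cells and from -0.00799 to 0.26 for the oxygen difference in WM35. Genes called numbered 26 to 249 with IGF1 in normoxia (151 as reported), 361 to 952 in hypoxia (867), 0 to 8 for their difference (5), 904 to 1724 with hypoxia in IGF1-treated cells (1488), 886 to 1575 with siIGF1R in normoxia (1483) and 21 to 136 for the Mel-624 difference (76). With IGF1 in normoxia the count was 249 where detection on all 12 arrays was asked for, 90 with no detection filter, 87 with a replicate block and 31 from the compared arrays alone, which gave 436 in hypoxia. The WM35 difference gave 8 with the deposited values, 2 with the block and 0 without both arrays standing apart. The Mel-624 difference gave 38 without further background correction, 136 under the strict and 32 under no detection filter. The causes were not tested.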

Other observations

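The antisense RNA ARRDC3-AS1, which is not one of the 5 genes and was named after its values were seen, rose with hypoxia in Mel-624. Its brighter probe, ILMN_3235196, stood at 7.07, 6.77 and 7.01 in hypoxic siControl cells, against 6.25, 6.73 and 6.23 in normoxic ones. The change was 0.55 ± 0.17 (SE, limma adjusted p = 0.014). In siIGF1R cells the levels were 6.69, 6.65 and 6.91 in hypoxia, against 6.01, 6.54 and 6.02 in normoxia, a rise of 0.56 ± 0.17 (adjusted p = 0.013). No arrays overlapped in either pair, as for 60.4% of all genes in siControl and 56.7% in siIGF1R cells. In WM35 the same probe was not called with hypoxia, at -0.23 ± 0.17 in control and -0.02 ± 0.17 in IGF1-treated cells. Its second probe, ILMN_3245495, was detected on all 3 hypoxic siControl arrays (5.65, 6.66 and 5.79) and on 0 of the hypoxic siIGF1R arrays (5.47, 5.19 and 5.11), at least 1.38-fold lower with siIGF1R. The brighter probe changed by -0.20 ± 0.17 there and was not called, so the 2 probes did not give the same reading of that comparison.

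IGF1R itself rose with hypoxia in Mel-624 siControl cells, by 1.41 ± 0.18 (limma adjusted p = 2.8e-05), where TXNIP was not called. In siIGF1R cells it changed by 0.37 ± 0.18 (adjusted p = 0.10), where TXNIP fell. In WM35 control and IGF1-treated cells IGF1R changed by -0.26 ± 0.13 and -0.30 ± 0.13 with hypoxia, neither called. The hypoxia-responsive gene ANGPTL4 rose by 5.79 ± 0.16 in WM35 control cells and changed by 0.13 ± 0.20 in Mel-624 siControl cells (adjusted p = 0.62), while NDRG1 rose by 1.89 ± 0.11 and 1.58 ± 0.10 in those same comparisons. VEGFA rose there by 1.26 ± 0.12 and 1.32 ± 0.15, and ADM by 1.62 ± 0.08 and 0.71 ± 0.09.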
